A study of Arabis alpina with 12 samples.

Results

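The stretches of the Arabis alpina chromosomes most densely filled with listed genes were described by their histone marks, DNA methylation and mRNA coverage. The 8 sequences that the files name as chromosomes were divided into 2342 whole windows of 100 kb, counted from position 0, and the last partial window of each was left out. A window was called gene-rich when the merged spans of listed genes, from start to end, covered 45% or more of it. This held for 233 windows, 9.95% of all, which amount to 23.3 Mb and hold the midpoints of 4257 listed genes. The other 2109 windows hold 17909 listed genes. Gene cover is fixed by this rule and is given here as a description.

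All material came from young leaves of accession Pajares, and every library shares this genotype and growth regime. Soil-grown plants were kept at 22.5 °C with 16 h of light and 8 h of dark. H3K4me3, H3K27me3 and H3K27me1 were profiled by ChIP-seq with 2 libraries each and 1 shared input, and 5mC by immunoprecipitation of methylated DNA (MeDIP-seq) with 2 libraries and 2 inputs. mRNA was sequenced in 1 library, so the series has 12 libraries. The files hold 1 list of enriched domains per mark and 1 table of mRNA coverage per gene, without values per library, and sequencing depth is unknown. No value below therefore has a replicate error and no test was possible. Windows, genes and domains of 1 list are not replicates, SDs describe how they vary, and the 8 chromosomes are used to show how far a difference recurs along the genome. Exact (Clopper-Pearson) 95% intervals on shares cover counting error only. The lowest coverage listed is 1, silent genes may have been left out of the table, and gene-rich means rich in listed genes.

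In plants, trimethylation of lysine 4 on histone H3 (H3K4me3) marks the starts of active genes, and H3K27me3 is laid down by Polycomb complexes over genes that are kept silent in a tissue. H3K27me1 and cytosine methylation (5mC) are typical of transposons and of the heterochromatin around centromeres. Short stretches of 5mC also occur on the arms, at single transposon copies and inside the bodies of some transcribed genes. Gene-rich arms are the setting in which such stretches stand apart from continuous heterochromatin.

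Gene-rich windows held 18.3 ± 4.02 listed genes (SD, n = 233 windows), and the other windows 8.49 ± 4.54 (SD, n = 2109 windows). Their gene cover was 52.1% ± 5.93, with a highest value of 75.3%, against 21.6% ± 11.7 in the other windows. Just inside the threshold lay a window on chromosome 8 (8200001 to 8300000) at 45.02% and a window on chromosome 1 (1400001 to 1500000) at 45.07%. Just outside lay a window on chromosome 8 (5000001 to 5100000) at 44.98% and a window on chromosome 6 (26900001 to 27000000) at 44.97%. The genes of gene-rich windows were slightly longer, with a median span of 2273 bp against 2125 bp. Choosing windows by span cover favours many genes and long spans, so neither difference is independent of the rule. Long genes contributed to the cover of some windows: 73 of the 233 held a gene of 10 kb or more, and these had 15.1 ± 3.34 genes, while the 160 without such a gene had 19.7 ± 3.43.

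Gene-rich windows were spread over all 8 chromosomes in unequal shares. They made up 15.5% of the windows of chromosome 1, 15.4% of chromosome 3 and 14.5% of chromosome 8, where 59 of them lay. Chromosome 7 had the smallest share, 4.47% (13 windows), followed by chromosome 5 with 6.17% and chromosome 2 with 6.36%. Most did not form long blocks. Of the 233, 105 had no gene-rich window beside them, and the rest had at least 1. Among this rest, 66 came in pairs. By comparison, 275 of the 2109 other windows lay directly beside a gene-rich window. Gene-rich windows thus adjoined one another more often than other windows adjoined them. The longest runs were 2 of 6 windows, on chromosome 6 (2000001 to 2600000, 111 genes) and on chromosome 8 (38100001 to 38700000, 117 genes).

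H3K4me3 covered more of gene-rich windows than of other windows, H3K27me1 and 5mC much less, and H3K27me3 about as much. H3K4me3 covered 13.5% ± 4.29 of a gene-rich window and 9.004% ± 3.31 of another window (SD, n = 233 and 2109 windows). The ratio of 1.50 was above 1 in 8 of 8 chromosomes, where it ranged from 1.29 to 1.66. H3K27me1 covered 3.97% ± 4.36 of gene-rich windows and 15.9% ± 10.8 of the others. 5mC covered 5.32% ± 4.77 of gene-rich windows and 19.2% ± 11.4 of the others. These ratios of 0.25 and 0.28 were below 1 in 8 of 8 chromosomes, with ranges of 0.22 to 0.35 and 0.26 to 0.40. H3K27me3 covered 8.47% ± 6.04 of gene-rich windows and 9.29% ± 6.44 of the others. That ratio, 0.91, was above 1 on 2 chromosomes and below 1 on 6, and it was 1.08 when only the upper 50% of each domain list by score per kb was kept.

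**Figure D1:**
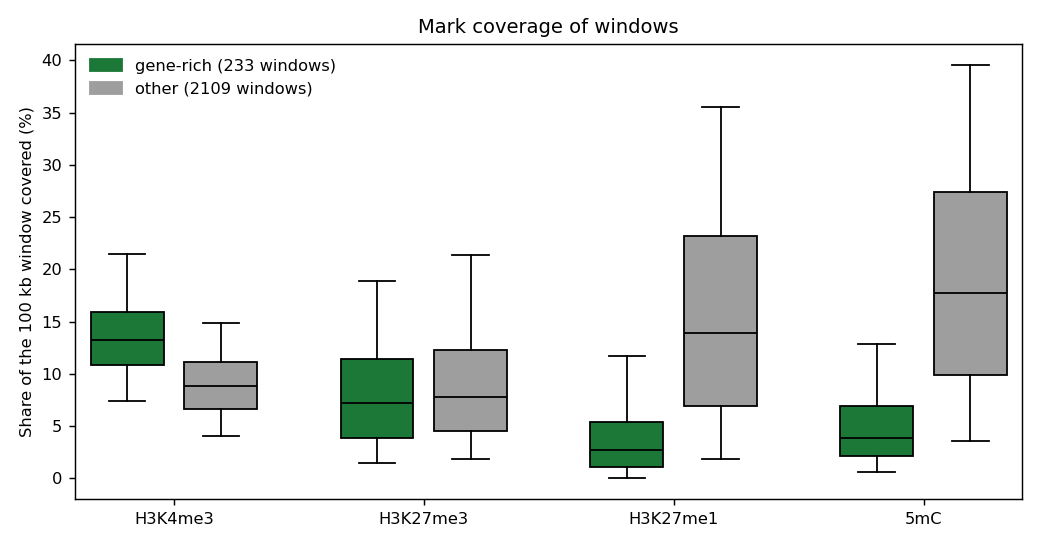
Share of each 100 kb window covered by domains of 4 marks (vertical axis, %) in 233 gene-rich and 2109 other windows; boxes span the quartiles with the median as a line, and whiskers run from percentile 5 to percentile 95 of the windows. Gene-rich windows have a higher median of H3K4me3 (13.2% against 8.85%) and lower medians of H3K27me1 (2.70% against 13.95%) and 5mC (3.90% against 17.7%), while the boxes of H3K27me3 overlap over most of their length.

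The marks differed by degrees along the range of gene cover. In windows with gene cover under 15%, from 15% to 30%, from 30% to 45%, from 45% to 50%, from 50% to 60% and of 60% or more, mean 5mC cover was 29.7%, 17.3%, 9.36%, 5.92%, 5.03% and 4.16%. H3K27me1 followed the same order, at 25.8%, 13.9%, 6.88%, 4.50%, 3.63% and 3.20%. H3K4me3 went the other way, at 8.12%, 8.87%, 10.3%, 12.1%, 14.4% and 15.5%. H3K27me3 was at 8.21%, 9.73%, 9.92%, 9.44%, 7.61% and 7.79%, with its highest mean in windows of 30% to 45% gene cover. The 275 windows directly beside a gene-rich window carried 11.5% ± 7.23 H3K27me3, the 1834 windows farther away 8.95% ± 6.24 (SD). With gene cover held between 30% and 45% the gap in H3K27me3 was smaller, with 10.9% ± 6.50 beside a gene-rich window and 9.56% ± 5.96 farther away. In the same windows 5mC covered 6.84% ± 4.996 of the 150 windows beside a gene-rich window and 10.3% ± 6.13 of the 414 farther away.

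Among the gene-rich windows themselves, H3K4me3 varied with the number of genes and 5mC with H3K27me1. Over 233 windows the number of genes and H3K4me3 cover had Pearson r = 0.76 and Spearman rho = 0.75, and 5mC and H3K27me1 had r = 0.90 and rho = 0.86. Neighbouring windows share a chromosome region and all marks share the same assembly, so these coefficients are descriptions. The window with the most H3K4me3, the first of chromosome 5 (1 to 100000), reached 30.75% with 27 genes and no H3K27me3. The next, on chromosome 8 (19900001 to 20000000), had 28.65% and the largest number of genes, 32. Windows at the other end of the range were nearly free of 5mC: on chromosome 3, those at 400001 to 500000 and at 3600001 to 3700000 each held 1 domain of 5mC over 0.15% of the window. No window of either kind was without 5mC. H3K27me1 was absent from 22 of the 233 gene-rich windows and from 19 of the 2109 others, and H3K27me3 from 4 and 9.

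A few gene-rich windows were heavily methylated. In 10 of the 233 windows, 4.29%, 5mC covered 15% or more, which 57.99% of the other windows reached. The highest lay on chromosome 7 (6300001 to 6400000) with 33.75% 5mC and 33.75% H3K27me1. Its gene cover came largely from a single listed gene, Aa_G222160 (6349649 to 6394038), the longest in any gene-rich window at 44390 bp. This span held 84.0% of the 5mC and 90.7% of the H3K27me1 of the window, and its mRNA coverage was 1.79. The second, on chromosome 5 (6800001 to 6900000), had 22.5% 5mC with 18 genes of which the longest was 7245 bp. For H3K27me1 the second was on chromosome 3 (9300001 to 9400000), at 22.35% with 17.1% 5mC.

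The window richest in H3K27me3 lay on chromosome 5 (19500001 to 19600000), with 38.7% of its length covered. It held 10 genes, among them Aa_G534000 (19509285 to 19537549) with a span of 28265 bp, and 7.10% of the window's H3K27me3 lay within that span. The second lay on chromosome 4 (21700001 to 21800000), with 30.3% H3K27me3, 16 genes, and an H3K4me3 cover of 4.95%, the lowest value in gene-rich windows, which a window on chromosome 2 shared. Median mRNA coverage per gene was 2.99 and 2.21 in these windows, and the median of this value over all gene-rich windows was 6.72.

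Position relative to genes differed from mark to mark. In gene-rich windows, 90.8% of the H3K4me3 bp lay within listed gene spans, which make up 52.1% of the sequence there. Another 6.16% lay within 2 kb of a span, and 3.03% farther away. In the other windows, 60.8% of H3K4me3 lay within spans and 32.99% beyond 2 kb. Of the H3K27me3 in gene-rich windows, 30.9% was within spans, 27.9% within 2 kb and 41.2% beyond. For H3K27me1 these shares were 18.5%, 22.8% and 58.7%, and for 5mC 15.2%, 32.8% and 51.9%.

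Each kind of position was also taken alone, since the rule itself sets the difference in gene cover. Within gene spans, all marks covered a smaller share in gene-rich windows. H3K4me3 was at 23.6% of span bp against 25.4%, lower in 7 of 8 chromosomes, without a comparison at equal span length. H3K27me3 was at 5.02% against 6.83%, H3K27me1 at 1.41% against 2.69% and 5mC at 1.55% against 3.16%, each also lower in 7 of 8 chromosomes. Outside all spans, H3K27me1 covered 6.75% of gene-rich windows and 19.5% of the others, and 5mC 9.41% and 23.6%, both lower in 8 of 8 chromosomes. H3K4me3 outside spans was at 2.60% against 4.50%, again lower in 8 of 8. This last ratio was 0.58, and it was 1.66, the reverse direction, in the upper 50% of domains by score per kb. Of the H3K4me3 bp outside spans, 31.5% lay inside H3K27me1 in gene-rich windows and 79.5% in the others.

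H3K27me3 lay more densely in the long intervals between genes of gene-rich windows. More than 2 kb from any listed gene it covered 18.4% of gene-rich windows and 10.9% of the others, higher in 8 of 8 chromosomes, with ratios from 1.29 to 2.41. The same held in the longer classes of interval length. In intervals of 10 kb or more H3K27me3 covered 17.7% of bp in gene-rich windows (261 intervals) and 10.4% in the others (4745 intervals), higher in 8 of 8 chromosomes. Median lengths in this class were unlike, 13594 and 19554 bp. In intervals of 5 to 10 kb it covered 14.0% (429 intervals) and 9.84% (2739 intervals), higher in 7 of 8. Between 2 and 5 kb the shares were 7.47% and 7.35%, and in shorter intervals the share in gene-rich windows was no higher. Intervals of 10 to 15 kb, where median lengths were 12116 and 12161 bp, gave 19.3% and 10.9%. Those of 15 to 25 kb, with medians of 18390.5 and 18905 bp, gave 16.7% and 11.8%, a smaller gap. Counted only over bp free of H3K27me1 and 5mC, intervals of 10 kb or more had 18.5% and 9.999% H3K27me3. Assembly gaps were not masked, and genes missing from the list may lie in such intervals; their part in the result was not tested.

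For intervals of 5 kb or more together the ratio was 1.56, and it stayed between 1.27 and 1.90 under all alternatives of window and domain choice tried. Its spread over chromosomes (value ± SD) took in equal cover with 50 kb windows (0.948 to 1.59) and with gene cover of 50% or more (0.863 to 2.12). The same held with gene cover from genes above the lowest coverage (0.977 to 1.93). Over all bp outside spans the ratio was 1.23, and it was 0.99 with windows of 50 kb.

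The same intervals carried less H3K27me1 and 5mC. In intervals of 10 kb or more 5mC covered 14.4% of bp in gene-rich windows and 26.999% in the others, and H3K27me1 11.8% and 22.9%, each lower in 8 of 8 chromosomes. In those of 10 to 15 kb, of similar median length, 5mC was at 11.6% and 17.5% and H3K27me1 at 8.90% and 13.03%. Between 2 and 5 kb 5mC was at 5.63% against 7.95%, lower in 6 of 8 chromosomes. Any 5mC at all was found in 1.34% of 2165 intervals under 1 kb in gene-rich windows (exact 95% interval 0.899% to 1.92%) and in 2.62% of 5573 in the others (2.22% to 3.07%). Such short intervals made up 51.2% of all intervals in gene-rich windows and 31.3% in the others, a difference that the choice of windows favours.

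**Figure D2:**
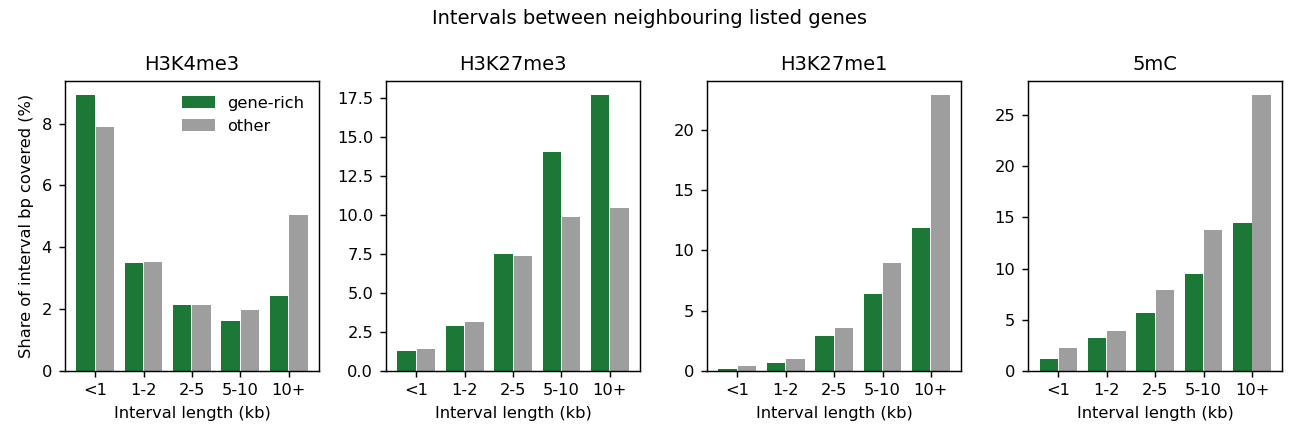
Share of bp covered by each mark (vertical axes, %, each with its own scale from 0) in intervals between neighbouring listed genes, by interval length (horizontal axis, kb), in gene-rich and other windows. H3K27me3 is higher in gene-rich windows in intervals of 5 to 10 kb (14.0% against 9.84%) and of 10 kb or more (17.7% against 10.4%), and H3K27me1 and 5mC are lower in every length class.

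H3K27me3 domains of gene-rich windows were of ordinary length. There were 1621 with a median of 900 bp, the same as in the other windows. Of these, 62.2% touched no listed gene, 37.5% touched 1 gene, and 4 domains touched 2 or more. H3K27me1 lay on 14.9% of those without a gene, against 37.9% of such domains in the other windows. The 2 longest were 7.8 kb each and free of the other marks. On chromosome 4 (21715801 to 21723600) the domain ran over part of Aa_G16240, a gene at the lowest coverage of 1, and on chromosome 6 (2360701 to 2368500) it touched no listed gene.

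H3K4me3 marked most listed genes of gene-rich windows. Over all listed genes in chromosome windows, 79.7% had H3K4me3 over at least 200 bp of their span, 13.3% had H3K27me3, 3.997% H3K27me1 and 4.73% 5mC. In gene-rich windows 3523 of 4257 genes carried H3K4me3, a share of 82.8% (81.6% to 83.9%, exact 95% interval), against 78.97% of 17909 in the others (78.4% to 79.6%), higher in 8 of 8 chromosomes. H3K27me3 was on 444 genes, 10.4% (9.53% to 11.4%), against 13.9% (13.4% to 14.5%), lower in 8 of 8. H3K27me1 was on 116 genes, 2.72% (2.26% to 3.26%), against 4.30% (4.01% to 4.61%), lower in 8 of 8. 5mC was on 115 genes, 2.70% (2.24% to 3.23%), against 5.21% (4.89% to 5.55%), lower in 7 of 8. The order for H3K4me3 depended on how much of the span had to be covered: with 50% or more, it was on 21.1% of genes in gene-rich windows and 23.8% in the others. Spans were slightly longer in gene-rich windows, and this 50% share was not compared at equal span length. For H3K4me3 over 200 bp the share lies close to that over all genes, and for the other marks it lies below it.

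The same order held among genes of similar length. In each of 4 equal groups of genes by span, the share with H3K4me3 was higher in gene-rich windows and the shares with the other marks were lower. In genes of more than 3175 bp, 5mC was on 5.23% of genes in gene-rich windows and 10.9% in the others, and H3K27me1 on 5.98% and 9.66%.

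H3K4me3 sat at 1 end of the gene. Among genes of 2 kb or more with the mark, 87.6% of 2158 in gene-rich windows had it over at least 150 of the outermost 300 bp at exactly 1 end (exact 95% interval 86.1% to 88.9%), against 86.96% of 8065 in the others (86.2% to 87.7%). 5mC and H3K27me1 mostly lay inside. Of 87 genes of that length with 5mC in gene-rich windows, 63.2% had it at neither end (52.2% to 73.3%), against 46.97% of 677 in the others (43.2% to 50.8%). For H3K27me1 the shares were 68.4% of 95 genes (58.1% to 77.6%) and 47.7% of 576 (43.6% to 51.9%).

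The end that bears H3K4me3 gives genes a direction, although the files state no strand. In 996 genes of 3 kb or more in gene-rich windows that had H3K4me3 at exactly 1 end, 5mC covered 0.21% of the outermost of 10 equal parts of the span at that end and at most 0.87% of any part. In 3489 such genes of the other windows it ranged from 1.62% in the part at the H3K4me3 end to 3.60% in the part numbered 7 from there. H3K27me1 ranged from 0.10% to 0.91% and from 1.80% to 2.96%. Outside the span, counted over bp free of listed genes, 5mC covered 8.14% at 825 bp from the H3K4me3 end and 4.86% at 375 bp in gene-rich windows, against 12.7% and 7.64% in the others. H3K27me3 at 825 bp from the H3K4me3 end was at 6.76% in gene-rich windows and 3.98% in the others. At the same distance from the opposite end the order was the other way, 6.99% and 7.77%.

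**Figure D3:**
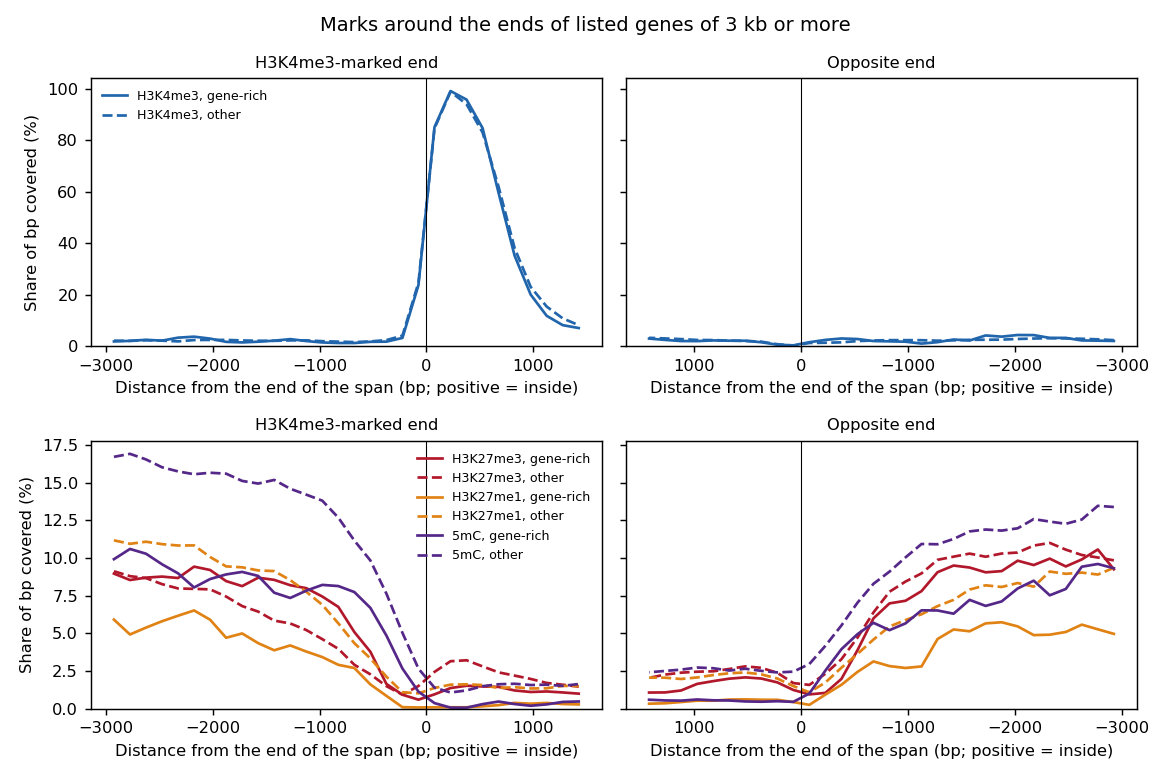
Share of bp covered (vertical axes, %) by distance from either end of listed genes of 3 kb or more with H3K4me3 at exactly 1 end (horizontal axes, bp, positive inside the span; 996 genes in gene-rich and 3489 in other windows, bins of 150 bp, outside positions counted over bp free of listed genes). The H3K4me3 peak follows from the choice of genes; within the 10 bins plotted inside either end 5mC stays at or below 0.62% in gene-rich windows, and outside it is higher at 825 bp (8.14% and 5.22% at the H3K4me3-marked and opposite ends) than at 375 bp (4.86% and 3.95%).

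Across intervals under 1 kb, neighbouring genes in gene-rich windows somewhat more often had H3K4me3 at 1 or both of the facing ends. Among neighbours of at least 600 bp across intervals under 1 kb, both facing ends were marked in 16.1% of 2068 pairs (exact 95% interval 14.5% to 17.8%), against 12.8% of 5229 pairs in the other windows (11.9% to 13.7%). Exactly 1 facing end was marked in 41.4% and 36.8%. At 1 to 2 kb both ends were marked in 20.1% (16.96% to 23.5%) and 18.2% (16.4% to 20.2%). At 2 to 5 kb the shares were 23.7% (20.6% to 27.04%) and 17.6% (16.2% to 19.01%). Pairs were not limited to genes with H3K4me3, which more genes of gene-rich windows carry, so the direction of genes was not compared by itself. The longest H3K4me3 domain of gene-rich windows, 6.6 kb on chromosome 3 (191701 to 198300), ran over 5 genes with mRNA coverage from 6.96 to 21.5. The second, 5.25 kb on chromosome 2 (27678751 to 27684000), lay wholly within 1 gene, Aa_G239240, with a coverage of 55.1.

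Taken on and off genes together, H3K4me3 domains were longer and denser in score where genes were dense. Their median length was 750 bp in gene-rich windows against 600 bp, and their median score per kb 883 against 583. The score is the authors' own value per domain and is compared only within a list. Of 4007 such domains in gene-rich windows 92.9% touched a listed gene, against 56.5% of 27081 in the others. Length and score were not compared for domains on genes alone. In genes with the mark, H3K4me3 covered a median of 32.1% of the span in gene-rich windows and 35.3% in the others, again not compared at equal span length. For H3K27me1 the median score per kb was 246.7 and 247.8, and for 5mC 720.0 and 671.6.

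5mC in gene-rich windows came in fewer and shorter domains, and a larger share of them was isolated. There were 1614 domains, 6.93 per window with a median length of 450 bp, against 20.8 per window and 600 bp in the others. A domain was called isolated when no other 5mC domain lay within 5 kb on either side. This held for 447 domains in gene-rich windows, 27.7% (exact 95% interval 25.5% to 29.9%), and for 3050 of 43767 in the others, 6.97% (6.73% to 7.21%). The definition makes this share higher where 5mC domains are fewer, so it does not measure how scattered they are. Per window, isolated domains numbered 1.92 and 1.45, and the remaining ones, called clustered here, 5.01 and 19.3. At least 1 isolated domain was present in 202 of the 233 gene-rich windows and in 1499 of the 2109 others. Isolated domains held 21.3% of the 5mC bp in gene-rich windows and 5.13% in the others.

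Isolated domains were short and of high score per kb. In gene-rich windows their median length was 300 bp, against 600 bp for the 1167 clustered domains, and their median score per kb 786.7 against 700.0. The median distance to the next 5mC domain was 12150 bp for the isolated and 600 bp for the clustered. The 2 longest isolated domains were exceptions in size. The longest, 6.15 kb on chromosome 1 (1453501 to 1459650), coincided with an H3K27me1 domain over its whole length, overlapped H3K27me3 over 34.1% and H3K4me3 over 31.7%, and touched no listed gene. The second, 5.55 kb on chromosome 8 (2521351 to 2526900), lay 78.4% inside H3K27me1, also away from listed genes.

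Outside gene spans, isolated domains were most frequent per Mb close to genes. Of the 447 in gene-rich windows, 42 lay wholly inside a gene span (9.396%), 18 partly over one (4.03%), 137 within 500 bp of one (30.6%) and 144 between 500 bp and 2 kb away (32.2%). Gene spans make up 52.1% of the bp of these windows. Of the 1167 clustered domains there, 11.9% lay wholly inside a span and 3.34% partly over one. Of the 387 isolated domains outside spans, 35.4% were within 500 bp (exact 95% interval 30.6% to 40.4%). This zone makes up 24.7% of the bp outside spans in these windows. Of the 989 clustered domains outside spans, 13.2% lay there (11.2% to 15.5%). In the other windows that zone is 8.47% of the bp outside spans and held 18.4% of isolated domains (16.9% to 19.9%). In gene-rich windows the zone from 500 bp to 2 kb held 37.2% of isolated domains outside spans and 35.7% of those bp. Per Mb of sequence within 500 bp of a gene, isolated domains numbered 49.8 in gene-rich and 36.6 in other windows. Beyond 5 kb from a gene they numbered 18.0 and 6.43 per Mb. Isolation depends on how much 5mC lies nearby, and clustered domains beyond 5 kb numbered 158.2 and 294.3 per Mb.

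**Figure D4:**
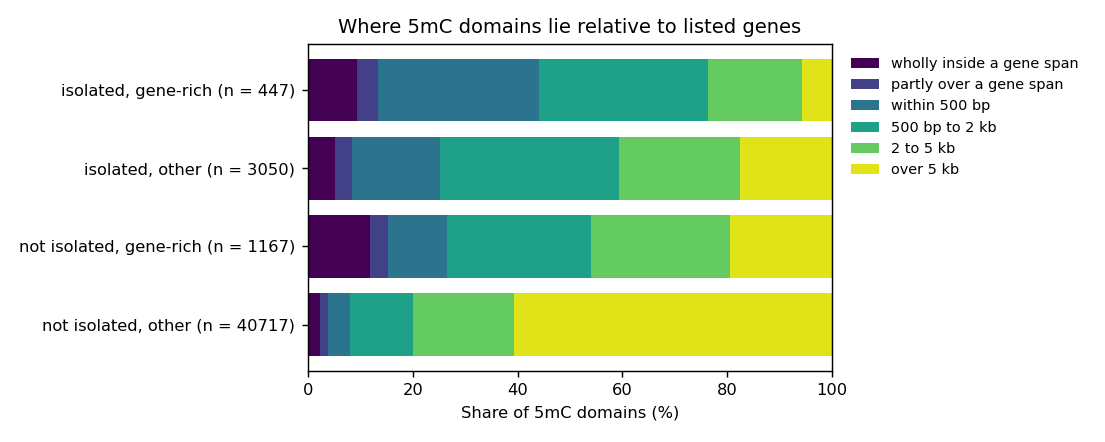
Share of 5mC domains (horizontal axis, %) by place relative to listed genes, for isolated and not isolated domains in gene-rich and other windows, with the number of domains beside each bar. Among isolated domains of gene-rich windows 30.6% lie within 500 bp of a gene span without touching it, against 16.8% in other windows, and 5.82% lie over 5 kb away, against 17.7%.

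Most isolated domains carried no H3K27me1. In gene-rich windows 118 of 447 overlapped it, 26.4% (exact 95% interval 22.4% to 30.7%), against 55.7% of the clustered domains (52.8% to 58.6%). In the other windows the shares were 32.95% (31.3% to 34.7%) and 64.4% (63.9% to 64.8%). Length went with this: in gene-rich windows H3K27me1 lay on 6.47% of isolated domains of up to 300 bp, on 29.1% of those above 300 and up to 600 bp, on 56.9% of those above 600 and up to 1200 bp and on 90.0% of the 40 longer ones. At equal length the clustered domains still had more, 25.6%, 45.2%, 77.5% and 93.6%, and in the longest class the intervals overlapped (76.3% to 97.2% and 89.5% to 96.4%). H3K27me3 lay on 17.9% of isolated and 14.2% of clustered domains, H3K4me3 on 7.61% and 13.4%. None of the other 3 marks was present on 274 isolated domains, 61.3% (56.6% to 65.8%).

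In gene-rich windows, the few isolated 5mC domains inside genes lay mostly away from the H3K4me3 end. The 42 isolated domains wholly inside spans fell in 42 different genes, of which 23 had H3K4me3 at exactly 1 end. Their median position was 72.7% of the span from that end, with 4, 5 and 14 domains in successive stretches of equal length. In the other windows 88 isolated domains of this kind had a median of 55.3%, with 18, 40 and 30 in these stretches. Clustered domains inside such genes of gene-rich windows, 42 in number, had a median of 47.4%, with 12, 19 and 11. In both comparisons the middle stretch held the most.

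Genes touched by isolated 5mC alone had mRNA coverage nearer to that of unmethylated genes than genes touched by clustered 5mC did. In gene-rich windows the 56 genes whose span was touched only by isolated 5mC had a median coverage of 5.08 (quartiles 2.46 and 11.1), and 83.9% of them carried H3K4me3. The 91 genes touched by clustered 5mC had a median of 2.95 (1.29 and 9.41), with H3K4me3 on 67.0% and H3K27me1 on 49.5%. The 3818 genes with no 5mC within 500 bp had a median of 6.68 (2.97 and 14.8), with H3K4me3 on 82.9%. With isolated 5mC within 500 bp but not on the span, the median of 168 genes was 6.22 (3.26 and 11.1). For the same groups of genes, listed as above, the medians in the other windows were 4.82, 2.15, 6.11 and 7.05. Coverage has no replicate, and all these quartile ranges overlap.

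Among the 58 genes that isolated 5mC touched, alone or beside clustered 5mC, the highest mRNA coverage was that of Aa_G353730 on chromosome 7 (7514082 to 7516026), at 269.1. The domain reached only 19 bp into its span, and H3K4me3 covered 60.5% of it. Aa_G213260 on the same chromosome (3565059 to 3576939) followed with 47.1, with 1050 bp of isolated 5mC and H3K27me3 over 53.0% of its span. 5mC covered 50% or more of the span in 1.89% of genes in the other windows and in 0.705% in gene-rich windows, 30 genes. The highest coverage among these was 52.5 for Aa_G249940 on chromosome 4 (22822232 to 22823561) and 22.4 for Aa_G75320 on chromosome 8 (38124724 to 38126138). Both carried H3K4me3, over 76.6% and 34.5% of the span, and neither H3K27me1.

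mRNA coverage of genes was slightly higher in gene-rich windows. The median was 6.63 (quartiles 2.94 and 14.6) for 4257 genes, against 5.92 (2.41 and 13.1) for 17909, a difference of 0.14 in log2(coverage + 1). By chromosome, medians ran from 5.78 to 7.28 in gene-rich windows and from 5.34 to 6.17 in the others, and gene-rich windows had the higher one in 7 of 8 chromosomes, with chromosome 1 the exception. Genes at the lowest listed value of 1 made up 5.80% (exact 95% interval 5.12% to 6.55%) and 8.12% (7.73% to 8.53%). Without them the log2 difference was 0.10, with a spread over chromosomes (value ± SD) from -0.016 to 0.216. With windows shifted by 50 kb and all genes kept it was 0.14 (-0.007 to 0.297). The listed genes that define the windows come from the same mRNA data, so gene cover and coverage are not independent. Genes above a coverage of 200 were equally frequent within counting error, 1.06% (0.772% to 1.41%) and 0.983% (0.843% to 1.14%). The difference was largest among short genes: in the shortest of the 4 groups by span the medians were 6.34 and 5.01, and in the longest 6.03 and 5.85.

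In the 3 largest classes of genes by their marks, median coverage was similar in both kinds of window. With H3K4me3 alone, the class of 76.0% of genes in gene-rich windows and 69.6% in the others, the medians were 8.15 and 8.10. With no mark they were 1.97 and 1.88, and with H3K27me3 alone 1.41 and 1.50. Genes with both H3K4me3 and H3K27me3 had 4.66 (173 genes) and 4.02 (972 genes). Smaller classes differed more, in either direction. For H3K4me3 with 5mC the medians were 7.40 (42 genes, quartiles 3.39 and 18.5) and 5.89 (216 genes, 3.35 and 11.5). For H3K27me1 with 5mC and no other mark they were 1 (15 genes) and 1.06 (170 genes). Genes with all 4 marks had 2.79 (15 genes) and 1 (134 genes), and genes with H3K4me3, H3K27me3 and 5mC had 2.99 (5 genes) and 4.98 (37 genes).

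**Figure D5:**
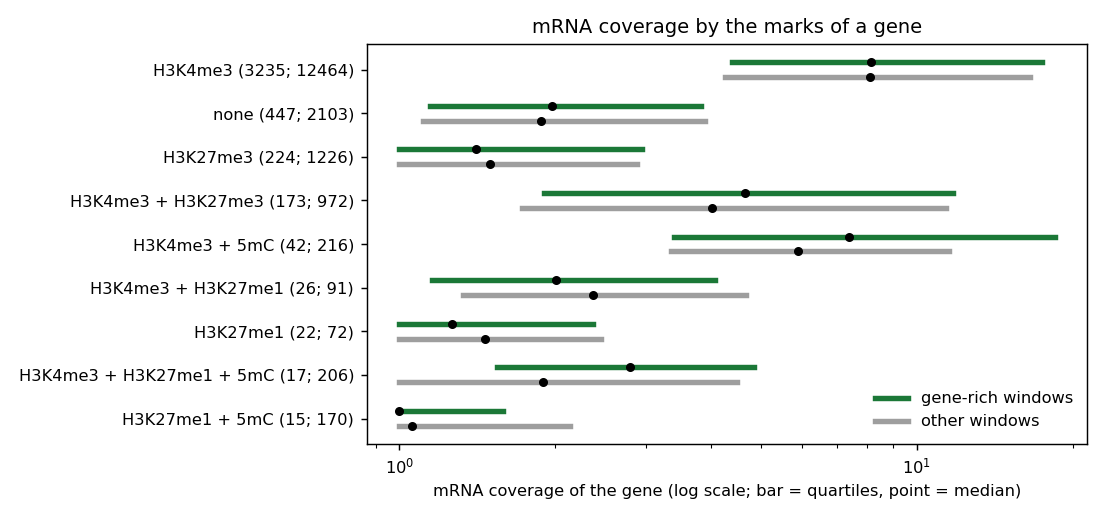
mRNA coverage of listed genes (horizontal axis, log scale, in 1 library) by the marks over at least 200 bp of the span, with bars for the quartiles and points for the median, gene-rich windows above other windows in each pair and numbers of genes in brackets in that order. Genes with H3K4me3 alone have medians of 8.15 and 8.10 and genes with H3K27me3 alone 1.41 and 1.50.

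The share of genes with 5mC was lower in gene-rich windows in 9 of 10 groups of genes by mRNA coverage. In the lowest of 10 groups by coverage, up to 1.22, 5mC was on 7.04% of 341 genes in gene-rich windows and on 17.9% of 1876 in the others, and H3K27me1 on 11.7% and 18.5%. H3K4me3 was on 27.3% and 31.3% of these genes and H3K27me3 on 36.95% and 39.3%. In the group numbered 5 from the lowest, 5mC was on 0.668% and 3.96%, and in the highest group on 1.54% and 1.76%. The exception was the group numbered 9, with 2.92% and 1.90%.

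The highest mRNA coverage in gene-rich windows was that of the neighbours Aa_G248920 and Aa_G248930 on chromosome 1, 12378 and 11265. The 10 highest genes made up 40.2% of the summed coverage in gene-rich windows, and 4 of them were among the 10 highest of all chromosome windows. All 10 carried H3K4me3 and 2 carried H3K27me3, against 82.8% and 10.4% of all listed genes in gene-rich windows. In the highest of 10 groups by coverage, these shares were 95.4% and 6.81% of 455 genes in gene-rich windows. H3K27me3 as the only mark was on 5.26% of genes in gene-rich windows and 6.85% in the others. H3K27me3 without H3K4me3, whatever the other marks, was found on 241 genes of gene-rich windows. Coverage among them was highest for Aa_G222150 (chromosome 7, 6395520 to 6397018) at 292.7, where 27.9% of the span lay in H3K27me3. It lies in the same window as the long methylated gene Aa_G222160 described above. Aa_G85260 (chromosome 8, 969196 to 969980) had 218.2, where H3K27me3 lay over 89.8%.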

How the data were processed

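Bowtie and SICER, a caller of broad domains, are named without versions in the submitters' processing notes. The sources used here do not give build, parameters or any pooling of replicates. The authors deposited 1 list of domains per mark with an unlabelled whole-number score, and a table of mRNA coverage per gene, a signal that by its name counts reads over exons, with a lowest value of 1. Domain starts were read as 0-based with inclusive ends, and positions in the text count from 1. Sequence length was the furthest end of any domain or gene. Genes, domains and intervals belong to the window of their midpoint, and 69 genes in partial windows were left out. No genome was used, so no sequence is shown. Python 3.11.15, NumPy 2.4.6, pandas 2.3.3 and SciPy 1.17.1 were used, and the interval arithmetic was tested on simulated data. Windows and lists were chosen with earlier results of these data known. Named genes, windows and domains are the 2 highest or longest of each set. Alternatives covered thresholds, window size and offset, overlap minimum, score per kb, pseudocount and isolation distance.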

Additional observations from a re-analysis of the deposited data

How the results depend on the processing

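No paired analysis was possible because the domain lists are not split by replicate, and leaving out replicates was not run for the same reason. Of 158 alternative values for 21 results, 121 stayed within the counting interval or the spread over chromosomes of the value reported, 34 moved and 3 reversed. The cause was not tested.

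With the upper 50% of domains by score per kb, the window ratio of H3K27me3 reversed to 1.08 and that of H3K4me3 outside genes to 1.66. In 50 kb windows the ratio of H3K27me3 outside genes was 0.99. In the upper 50%, cover of gene-rich windows was 11.6% for H3K4me3, 5.97% for H3K27me3, 2.27% for H3K27me1 and 3.07% for 5mC, genes marked were 72.7%, 7.63%, 1.29% and 1.93% in that order, the H3K4me3 window ratio was 2.14, the H3K27me3 ratio in intervals of 5 kb or more 1.90, and 69.1% of 5mC domains lacked H3K27me1.

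With a threshold of 40% gene cover, H3K4me3 covered 12.6%, H3K27me3 was on 11.5% of genes and 24.98% of 5mC domains were isolated, and with 50% H3K4me3 covered 14.7%. Requiring 50% of the span gave 21.1% of genes with H3K4me3, now below the 23.8% of the other windows, 5.68% with H3K27me3, 0.658% with H3K27me1 and 0.705% with 5mC, and requiring 1 bp gave 3.45% with 5mC. Isolation by 2 kb and 10 kb gave 40.1% and 16.2%. In 50 kb windows 3.26% of genes had 5mC and 56.8% of 5mC domains lacked H3K27me1, against 57.4% in windows shifted by 50 kb and 60.5% when H3K27me1 had to cover 50% of the domain.

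Of the alternatives chosen after seeing the data, leaving out gene-rich windows that hold a gene of 10 kb or more gave 14.6% H3K4me3 cover, genes marked at 9.09% for H3K27me3, 2.09% for H3K27me1 and 2.09% for 5mC, 30.4% isolated, and 55.6% of 5mC domains without H3K27me1. Gene cover from genes above the lowest coverage gave 84.0% of genes with H3K4me3 and 9.37% with H3K27me3. Depth is unknown, so weakly enriched domains may be missing from every list.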
